A study of Mus musculus with 20 samples.

Results

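The genes described here are the 10 genes of the goblet cell mucus programme that were followed by name in mouse colon RNA: Muc2, Fcgbp, Clca1, Zg16, Tff3, Agr2, Spdef, Atoh1, Ang4 and Spink4. All 10 were found by their symbol in both deposited count tables, among 56748 genes in the chow table and 31184 genes in the high fat diet (HFD) table, and all 10 passed the expression filter in every comparison. The series holds 20 poly-A RNA libraries of whole colon sections in 5 groups of 4 mice. On standard chow, killed at 9 weeks of age, these were controls labelled Pcca ff (ff), Pcca knockouts made with Villin-Cre (Vill), and liver-specific Pcca knockouts made with Albumin-Cre (Alb). On HFD the groups were ff and Vill, males that ate a diet with 60% of its calories from fat for 12 weeks from the age of 6 weeks and were killed at 18 weeks. All mice were fasted for 4 hours. The ff animals are described as littermates of the Vill knockouts, no strain is given, and the labels give no sex for the chow animals. Diet and age differ together between the tables and cannot be told apart, and sex may differ with them. Villin-Cre acts in the intestinal epithelium, whereas the sections also held muscle, stroma and immune cells, and Albumin-Cre leaves the colon's own Pcca in place. The study asked what loss of Pcca, a subunit of the mitochondrial propionyl-CoA carboxylase, does to transcription in the colon.

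Goblet cells are the mucus-secreting cells of the intestinal epithelium. Their differentiation is set off by the transcription factor Atoh1 and matured by Spdef, and their main product is the gel-forming mucin Muc2, a very large protein that is folded and linked into polymers in the endoplasmic reticulum and Golgi, heavily O-glycosylated, packed into granules and released. In the colon the mucus gel keeps bacteria away from the epithelium, and proteins secreted with Muc2 shape it.

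Libraries held 27857056 to 40385785 counted reads on chow and 16881567 to 24423757 on HFD, and the smallest count of any member was 117 reads (Ang4 in chow Vill 3). Levels are in CPM, the reads of a gene per fixed number of reads of its library, after TMM scaling over all 20 libraries unless said otherwise. Pcca was at 54.5, 39.8, 57.7 and 41.2 CPM in chow ff and at 27.9, 33.8, 29.4 and 29.7 CPM in chow Vill, so that each chow Vill library lay below each chow ff library. Chow Alb stood at 58.7, 39.2, 41.4 and 44.0 CPM. On HFD, ff libraries were at 28.9, 53.5, 31.1 and 59.5 CPM and Vill libraries at 33.4, 37.3, 32.6 and 33.7 CPM, so HFD ff 1 and HFD ff 3 were as low in Pcca as the Vill libraries. The same 2 ff libraries held the lowest level of the distal Hox genes described below. They also held the highest summed level of the 14 small intestine enterocyte genes, 801 and 939 CPM against 183 to 259 CPM in the other HFD libraries. Slc10a2 alone gave 434 and 501 CPM of these sums, and Sis was at 57.7 and 73.8 CPM. Slc5a1 of the list was at 182 and 199 CPM, inside its range of 120 to 230 CPM in HFD Vill. Lct was at 0.211 and 0.225 CPM and Apoa4 at 0.381 and 0.393 CPM, so the sum does not stand for the whole list. The members' HFD comparison and the HFD slopes are therefore also given without HFD ff 1 and ff 3. The HFD correlations and the group values of other goblet genes are not given without them. On chow the small intestine list was highest in ff 2 and Vill 1, at 605 and 637 CPM, of which Slc10a2 gave 235 and 270 CPM. The other chow libraries had 187 to 337 CPM. The distal Hox sum was 59.2 CPM in chow ff 2 and 34.8 CPM in chow Vill 1. No fit left out these 2 chow libraries together. The 12 pan-epithelial genes summed to 12750 to 21980 CPM in every library, so epithelium was present throughout. The 14 absorptive colonocyte genes summed to 5311 to 18380 CPM. In HFD ff 1 and ff 3 that sum was 9399 and 12500 CPM, of which Car1 gave 5596 and 6661 CPM. Aqp8 of the same list was at 4.44 and 36.5 CPM there, against 134 to 558 CPM in the other HFD libraries. Genes of the list thus went opposite ways, and its sum does not show colon epithelium in these 2 libraries. One chow Alb library (Alb 2) held the squamous epithelium list at 102 CPM, against 4.65 to 13.2 CPM elsewhere. In RNA of whole tissue, fewer goblet cells and less RNA per goblet cell cannot be told apart.

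The members were among the most abundant transcripts of the colon. They took 2.81 to 6.93% of all counted reads in chow ff, 1.40 to 5.63% in chow Vill, 1.93 to 4.21% in chow Alb, 0.915 to 4.09% in HFD ff and 1.32 to 4.93% in HFD Vill. The ranges of the groups overlapped in each case. Clca1 had the most reads of all genes in chow ff, with Fcgbp in place 4 and Muc2 in place 5 of 30568 detected genes. Per kilobase of the deposited gene length the order was another one. In chow ff Clca1 led at 4994 CPM per kb, followed by Ang4 at 3173, Zg16 at 2646 and Tff3 at 1789 CPM per kb, while Muc2, whose transcript is 13916 bases long, came to 544 ± 146 CPM per kb (SD, n = 4). Spdef and Atoh1 were the least abundant members, at 36.3 ± 11.8 and 34.1 ± 5.24 CPM per kb (SD, n = 4). Neighbours in this order overlapped between animals in chow ff except Zg16 above Tff3 and Muc2 above the pair of transcription factors.

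**Figure D1:**
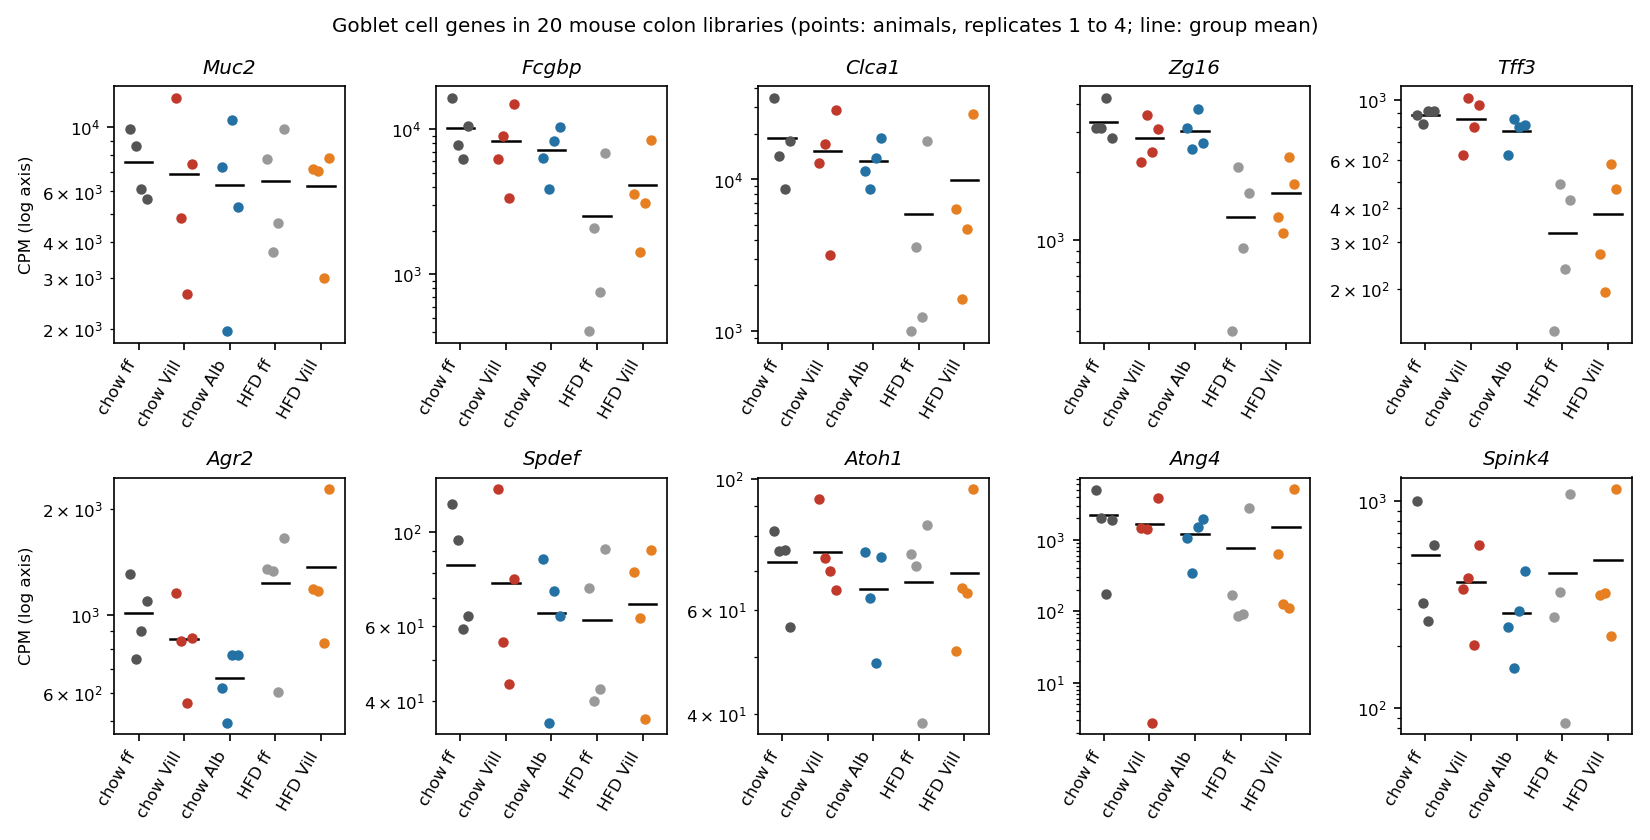
Level of each of the 10 goblet cell genes in the 20 libraries, in CPM on a log axis, 1 panel a gene. Points are animals, lines are means of the groups of 4 (ff, controls; Vill, Villin-Cre knockouts; Alb, Albumin-Cre knockouts), and the points of each pair of groups compared overlap, with Ang4 spanning the widest range and Tff3 and Atoh1 narrow ones on chow.

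Atoh1, the factor that commits epithelial progenitors to the secretory lineage, varied least between groups. It is annotated on the plus strand of chromosome 6 at 64706109 to 64708229 in mm39, the build of the deposited tables. It stood at 81.7, 75.6, 75.9 and 56.2 CPM in chow ff, at 92.4, 73.6, 69.8 and 64.8 CPM in chow Vill, and at 75.1, 62.8, 48.8 and 73.7 CPM in chow Alb. HFD ff had 74.6, 71.3, 38.7 and 83.5 CPM and HFD Vill 51.2, 65.4, 64.2 and 96.1 CPM. The highest group mean was 1.15 times the lowest, and all neighbouring groups overlapped.

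Spdef, an Ets factor that drives goblet cell maturation (chromosome 17, 27933326 to 27947929, minus strand, mm39), stood at 116, 95.7, 59.0 and 63.4 CPM in chow ff and at 126, 54.9, 43.7 and 77.5 CPM in chow Vill. Chow Alb had 86.1, 35.5, 72.7 and 63.3 CPM. On HFD, ff libraries were at 73.8, 39.9, 42.6 and 91.0 CPM and Vill libraries at 80.6, 62.7, 36.3 and 90.8 CPM. The spread inside a group was larger than any difference between group means, which ranged from 61.8 CPM in HFD ff to 83.6 CPM in chow ff.

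Muc2 (chromosome 7, 141276583 to 141308430, plus strand, mm39) shared its highest and its lowest library in each table with Spdef (Vill 1 and Alb 2 on chow, ff 4 and Vill 3 on HFD), though not within every group. Its 4 chow ff libraries were at 9889, 8653, 6122 and 5631 CPM and its chow Vill libraries at 12670, 4856, 2639 and 7460 CPM. Chow Alb ranged from the lowest value of all, 1968 CPM in Alb 2, through 5316 and 7289 to 10640 CPM in Alb 3. HFD ff had 7742, 3705, 4652 and 9898 CPM, and HFD Vill 7189, 7084, 3008 and 7860 CPM. The means of the 5 groups lay between 6285 and 7574 CPM, a ratio of 1.21, whereas single chow libraries differed 6.44-fold. The log2 ratio of Spdef to Muc2 was nearly constant in HFD ff, from -6.77 to -6.54, and spread more in chow Alb, from -7.20 to -5.79.

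The 250 bases before the RefSeq start of Muc2 and of Spdef are shown because of the close match of their levels over the libraries, and that of Ang4 because its level varied most. RefSeq's promoter table, on build GRCm38.p6, held 6 of the 10 members (Muc2, Fcgbp, Agr2, Spdef, Atoh1 and Ang4). The 6 short motifs below were searched on both strands: CAGCTG and CAGATG, which are E-boxes of the kind bound by factors of the Atoh1 class, TATAAA, the TATA box, TTTATG, a caudal-type motif, TGTTTAC, a forkhead motif, and GGAT, a form of the Ets core motif. No motif contains another. Capitals mark every match except GGAT.
Muc2, chr7:141690090-141690339, plus strand: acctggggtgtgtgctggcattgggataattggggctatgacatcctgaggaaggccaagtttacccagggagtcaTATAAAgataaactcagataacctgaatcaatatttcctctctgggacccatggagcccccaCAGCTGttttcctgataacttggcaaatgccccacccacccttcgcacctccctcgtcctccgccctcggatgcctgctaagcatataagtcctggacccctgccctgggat
Spdef, chr17:27728952-27729201, minus strand: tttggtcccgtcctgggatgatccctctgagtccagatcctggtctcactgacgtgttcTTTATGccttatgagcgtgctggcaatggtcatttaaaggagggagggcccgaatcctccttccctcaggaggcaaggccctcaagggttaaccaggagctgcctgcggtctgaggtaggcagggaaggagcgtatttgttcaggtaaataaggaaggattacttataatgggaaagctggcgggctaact
Ang4, chr14:51773591-51773840, minus strand: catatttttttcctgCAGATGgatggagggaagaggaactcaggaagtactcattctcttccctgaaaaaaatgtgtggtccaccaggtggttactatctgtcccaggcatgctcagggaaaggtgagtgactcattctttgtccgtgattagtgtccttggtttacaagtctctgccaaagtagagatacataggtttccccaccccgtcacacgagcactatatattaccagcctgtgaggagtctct
The Muc2 window held CAGCTG, as did 13.0% of all 32851 windows of this length, and TATAAA, as did 12.4%. That of Spdef held TTTATG (10.8% of windows) and that of Ang4 held CAGATG (14.4%). GGAT, present in 74.1% of windows, occurred 4 times before Muc2, 5 times before Spdef and 1 time before Ang4, where it overlaps the last base of CAGATG. None of the 3 windows held the forkhead motif TGTTTAC (3.17% of windows). A match is a run of letters and not a measured binding site.

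Agr2, a disulfide isomerase of the endoplasmic reticulum needed for Muc2 folding, stood at 1311, 749, 899 and 1097 CPM in chow ff, at 1154, 844, 563 and 858 CPM in chow Vill, and at 621, 493, 769 and 769 CPM in chow Alb. On HFD the ff libraries had 1354, 1334, 602 and 1652 CPM and the Vill libraries 1182, 1167, 833 and 2281 CPM. It was the member whose HFD group means, 1235 and 1366 CPM, lay above those of all chow groups, although neighbouring groups overlapped.

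Fcgbp, a large secreted protein of the mucus gel that is rich in von Willebrand domains, had 16460, 7717, 6198 and 10580 CPM in chow ff, 6269, 8947, 3331 and 14840 CPM in chow Vill, and 6341, 3885, 8254 and 10290 CPM in chow Alb. On HFD it ranged from 406 CPM in ff 1 to 6804 CPM in ff 4, with 2084 and 756 CPM in the other ff libraries, and stood at 3584, 1432, 3105 and 8352 CPM in Vill. Clca1, a secreted metalloprotease that processes Muc2, followed the same order of libraries within each group. It had 34650, 14180, 8623 and 18000 CPM in chow ff and 12750, 17180, 3150 and 28690 CPM in chow Vill. Chow Alb was at 11430, 8709, 13950 and 18750 CPM. In HFD ff it was at 995, 3584, 1238 and 17900 CPM and in HFD Vill at 6336, 1614, 4700 and 26950 CPM, a 27.1-fold range over 8 libraries in which ff 4 and Vill 4 stood far above the others.

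Zg16, a lectin-like granule protein that binds Gram-positive bacteria, and Tff3, a trefoil peptide of epithelial repair, were the steadiest secreted members on chow. Zg16 was at 3109, 3128, 4249 and 2817 CPM in chow ff, 2224, 3566, 2447 and 3085 CPM in chow Vill, and 3110, 2530, 3788 and 2682 CPM in chow Alb. In HFD ff it had 398, 2111, 928 and 1621 CPM and in HFD Vill 1270, 1081, 2326 and 1776 CPM. The deposited Zg16 gene (chromosome 7, 126649328 to 126686500, minus strand, mm39) overlaps Gm44939 and Gm22747 on the other strand, and whether the counting used strand is not settled by the labels, so reads of these genes could not be kept apart with certainty. Tff3 was at 881, 819, 913 and 916 CPM in chow ff, 625, 1023, 795 and 958 CPM in chow Vill, and 628, 853, 797 and 811 CPM in chow Alb. Its HFD libraries had 140, 491, 239 and 427 CPM in ff and 270, 195, 581 and 472 CPM in Vill. Tff3 was the single member whose 12 chow libraries all lay above its 8 HFD libraries. That description carries no test because diet and age changed together, and sex may have changed with them. Depth differed too, as did the share of mitochondrial reads (3.14 to 4.07% on chow, 4.5 to 9.75% on HFD). The share of all genes that separated this way was not taken, so the separation is not shown to be particular to Tff3.

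Ang4, an antimicrobial ribonuclease of the angiogenin family (chromosome 14, 52001335 to 52011047, minus strand, mm39), varied most. Chow ff had 4914, 2034, 173 and 1878 CPM, chow Vill 1465, 1426, 2.74 and 3832 CPM, and chow Alb 1069, 340, 1512 and 1938 CPM. The highest chow library exceeded the lowest 1790-fold. HFD ff had 171, 87.0, 92.6 and 2752 CPM and HFD Vill 628, 124, 111 and 5099 CPM, so that in each HFD group 1 library, replicate 4, held most of the signal. Ang4 has close family copies and reads shared between them are uncertain, but Ang2, Ang5 and Ang6 were at or near 0 in every library and Ang stood at 10.5 to 30.7 CPM. Spink4, a small secreted protein of the Kazal inhibitor family, had 1006, 322, 265 and 617 CPM in chow ff, 377, 426, 201 and 618 CPM in chow Vill, and 246, 157, 295 and 458 CPM in chow Alb. On HFD it had 275, 366, 85.0 and 1078 CPM in ff and 352, 360, 222 and 1143 CPM in Vill.

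Knockout of Pcca in the intestinal epithelium on chow came with no called difference in any of the 10 members. Here and in what follows, called means an adjusted p under 0.05 in the whole table (edgeR quasi-likelihood test with Benjamini-Hochberg adjustment). In chow Vill against ff, 0 of 10 members were called, where 0.00508% of the 19701 tested genes were, and 0 of 10 had an unadjusted p under 0.05, where 1.9% of all genes did. DESeq2 and limma-voom also called 0. Muc2 differed by a log2 of -0.13 (95% interval -1.27 to 1.01, adjusted p = 1). Tff3 had the narrowest interval, at -0.05 (-0.40 to 0.29), and Ang4 the widest, at -0.42 (-3.14 to 2.30). Log2 values of 9 of 10 members were below 0, with a median of -0.24, while 49.2% of all genes were below 0 and their median was 0.0034. That direction rested on 1 control library: without chow ff 1, which had the highest value of 8 of 10 members in its group, the median was 0.022. Without chow Vill 3, lowest of its group in 7 of 10 members, it was -0.013.

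**Figure D2:**
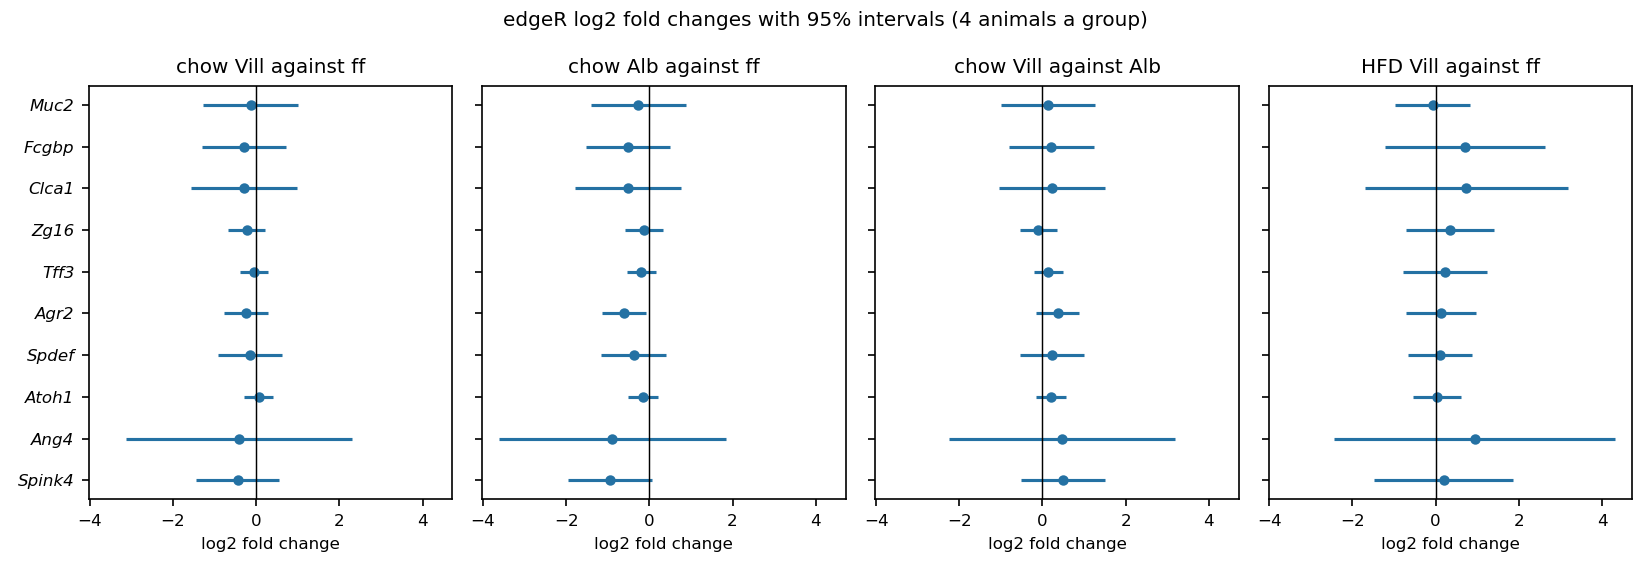
Log2 fold changes of the 10 genes with their 95% intervals from edgeR, in the 3 chow comparisons and the HFD comparison, 4 animals a group. The intervals include 0 in each case except Agr2 in chow Alb against ff, and they are widest for Ang4 and then Clca1 in each comparison.

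In colons of the liver-specific knockouts all 10 members had lower log2 values than chow ff, with a median of -0.44 beside 0.00045 over all genes, of which 49.9% were below 0. The median was -0.17 without chow ff 1 and -0.27 without chow Alb 2, and the value of Muc2 was 0.039 without chow Alb 2 and that of Zg16 0.0065 without chow ff 3. None was called, and 0% of the 19701 tested genes were. Agr2 was the member with an unadjusted p under 0.05, as had 4.4% of all genes. Its log2 difference was -0.61 (95% interval -1.13 to -0.09), which is 65.4% of the ff level, with p = 0.0252 and an adjusted p of 0.99 by edgeR, and an exact permutation test over 8 libraries gave a 2-sided p of 0.0857. The highest 2 Alb libraries (769 CPM each) overlapped the lowest ff library (749 CPM). Spink4 stood at -0.94 (-1.95 to 0.08, adjusted p = 0.99), Ang4 at -0.89 (-3.62 to 1.84) and Muc2 at -0.26 (-1.40 to 0.87). The authors' deposited table gives log2 values of -0.60 for Agr2 and -0.93 for Spink4 with an adjusted p of 1 for both. In the same comparison the 15 cell division genes were all lower, 12 of them at an unadjusted p under 0.05 (median log2 -0.67), the 11 B and plasma cell genes were all lower (median -0.74), and the 10 smooth muscle genes were all higher (median 0.37). Summed over the list, cell division genes were at 489 to 867 CPM in ff and 298 to 507 CPM in Alb. The part of these cells in the members' values was not tested.

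Between the knockouts, chow Vill against Alb, 9 of 10 members had log2 values above 0 (median 0.22, all genes 0.019, 47.2% of all genes below 0), and 0 of 10 were called where 0.00508% of all genes were. No member had an unadjusted p under 0.05, against 8.87% of all genes. Agr2 stood at 0.37 (95% interval -0.15 to 0.89, adjusted p = 0.683 by edgeR) and Muc2 at 0.13 (SE 0.520). The median was 0.061 without chow Vill 4, 0.11 without chow Alb 2, 0.34 without chow Alb 4 and 0.44 without chow Vill 3. This comparison shares its libraries with those above and adds no independent direction.

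On HFD, Vill against ff, 0 of 10 members were called, beside 0.00564% of 17715 tested genes, and 0 of 10 were at an unadjusted p under 0.05, beside 3.45% of all genes. Clca1 differed by a log2 of 0.74 (95% interval -1.70 to 3.17), Fcgbp by 0.71 (-1.21 to 2.64) and Ang4 by 0.94 (-2.45 to 4.32). Muc2 stood at -0.07 (-0.97 to 0.84, adjusted p = 0.99 by edgeR) and was the member below 0. The median of the members was 0.21 and that of all genes -0.0038, with 50.7% below 0. Single libraries set this median: it was -0.18 without HFD Vill 4, 0.036 without HFD ff 3 and 0.43 without HFD ff 4, and 0.33 to 0.39 without HFD ff 2, Vill 1 or Vill 2. Without HFD ff 1 and ff 3 the values of 7 members that had been above 0 were below it, among them Zg16 at -0.20, Tff3 at -0.26 and Spink4 at -0.47. The distal Hox level, described below, was 6.17 and 22.5 CPM in these 2 libraries, and the 10 tested small intestine genes were all lower in Vill (median log2 -1.06).

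The effect of Villin-Cre knockout was also compared between diets in 16 libraries. The difference of the log2 effects, HFD less chow, was 0.07 for Muc2 (95% interval -1.28 to 1.42), 1.01 for Fcgbp (-1.22 to 3.24) and 1.03 for Clca1 (-1.84 to 3.90). None of the 10 members was called, as none of the 19516 tested genes was (0%), and 0 of 10 had an unadjusted p under 0.05, beside 2.54% of all genes. The median was 0.48 with 9 of 10 above 0, while 51.9% of all genes were below 0, and it was -0.013 without HFD Vill 4, 0.23 without HFD ff 3 and 0.25 without chow ff 1.

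Within the tables the members did not vary as a single block. Correlations were computed on log2(CPM + 1) for 45 pairs on chow and 45 on HFD, and p-values come from permutation (100000 resamples for 12 chow libraries, all 40320 orders for 8 HFD libraries) adjusted over the 90 relations. Muc2 and Spdef went together on both diets. On chow r was 0.925 and Spearman's rho 0.902 (n = 12, permutation adjusted p = 0.000675 and 0.00165), and 0.854 without the 2 libraries farthest from the Muc2 median. On HFD r was 0.958 and rho 0.976 (n = 8, permutation adjusted p = 0.00307 and 0.00446), and 0.921 without the farthest 2. Fcgbp and Clca1 were another close pair, with r = 0.947 on chow and 0.965 on HFD (n = 12 and 8, permutation adjusted p = 0.00045 and 0.00307, rho 0.972 and 1). Agr2 and Spink4 had r = 0.841 and 0.938 (permutation adjusted p = 0.00783 and 0.0207), though their HFD rho of 0.833 did not pass (permutation adjusted p = 0.0923). Spink4 also ran with Fcgbp and Clca1 on chow (r = 0.929 and 0.847, permutation adjusted p = 0.000675 and 0.0054). On HFD these had r = 0.752 and 0.82 (permutation adjusted p = 0.0978 and 0.0654).

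Ang4 ran with Clca1 on chow (r = 0.939, rho 0.923, n = 12, permutation adjusted p = 0.00045 and 0.00162). On HFD their r was 0.871 (rho 0.643, n = 8, permutation adjusted p = 0.0427 and 0.255) and dropped to 0.441 without the farthest 2 libraries, so there it rested on those libraries. Zg16 and Tff3 were close on HFD (r = 0.942, rho 0.976, n = 8, permutation adjusted p = 0.00307 and 0.00446) and not on chow (r = 0.453, rho 0.385, n = 12, permutation adjusted p = 0.265 and 0.366). Muc2 and Tff3 had negative r in both tables, -0.301 and -0.416, neither of which passed the adjustment (permutation adjusted p = 0.501 and 0.458). All pairs share the same libraries and their scaling, and the correlations are over pooled groups.

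**Figure D3:**
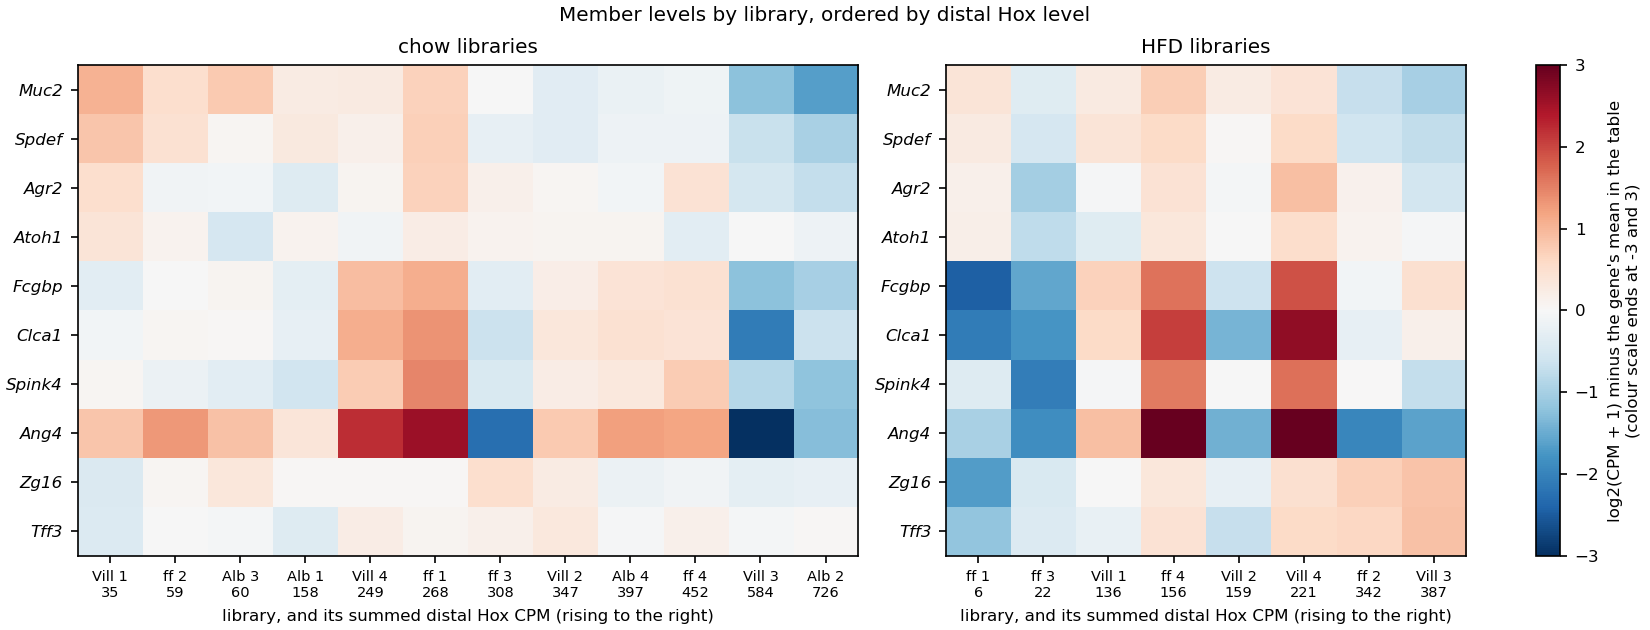
Each gene's log2(CPM + 1) less its mean over the table, by library, with libraries ordered from the lowest to the highest summed distal Hox CPM (printed under each library). Muc2 and Spdef go from red (above the mean) to blue (below it) from left to right on chow, while on HFD Zg16 and Tff3 go from blue to red, and the Fcgbp, Clca1, Spink4 and Ang4 rows all have their highest value in chow ff 1 and in HFD Vill 4.

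The 5 genes outside the list whose pattern was most like that of Muc2, by the lower of the chow and HFD Pearson correlations among 11354 genes at a mean of 5 CPM or more in both tables, were Cldn15, Slc2a10, Cgref1, Slc1a4 and Galnt12. Cldn15, a pore-forming claudin, had r = 0.964 over 12 chow and 0.952 over 8 HFD libraries. Slc2a10 had 0.939 and 0.956, Cgref1 0.988 and 0.938, and Slc1a4, a neutral amino acid transporter, 0.93 and 0.957. Galnt12, which starts mucin O-glycosylation, had 0.924 and 0.947. Spdef held rank 5 of all 11354 genes on this measure, whereas Agr2 was at rank 557, Clca1 at 1978 and Tff3 at 7375. These correlations are descriptions over libraries that also differ in the distal Hox level.

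Part of the spread between libraries went with a readout of position along the gut. Posterior Hox genes keep the identity of the distal hindgut, and the level of 5 of them (Hoxa13, Hoxb13, Hoxd11, Hoxd12 and Hoxd13) was summed per library. On chow the sum ran from 34.8 CPM in Vill 1 to 726 CPM in Alb 2 and on HFD from 6.17 CPM in ff 1 to 387 CPM in Vill 3. The 5 genes did not share in it equally. In chow Alb 2 Hoxb13 gave 479 CPM and Hoxd13 gave 152.5 CPM, whereas in chow Vill 1 Hoxa13 gave 33.0 CPM. Over the chow libraries Hoxa13 ran from 33.0 to 70.2 CPM and Hoxb13 from 0.582 to 479 CPM. Hoxd11 and Hoxd12 did not exceed 15.2 CPM. The chow library with the lowest sum had the highest Muc2 (Vill 1, 12670 CPM) and the one with the highest sum the lowest Muc2 (Alb 2, 1968 CPM). An edgeR fit with a term for each group and a slope on the log2 of this sum, a test added after the data had been seen, called Muc2 and Spdef on chow. Muc2 fell by 0.45 on the log2 scale for each doubling of the distal Hox level (SE 0.0926, adjusted p = 0.00684), to 0.731 of its level. Spdef fell by 0.29 (SE 0.0702, adjusted p = 0.0158). These are 2 of 10 members among the 9.61% of all 19701 genes that were called lower along the sum, while 9.7% were called higher and no member was. The slope of Spdef lost its call without chow Vill 1 (adjusted p = 0.0866). That of Muc2 kept it in each of the 12 fits that left out a library (-0.55 to -0.38). Chow ff 2 and chow Vill 1, the chow libraries highest in small intestine genes, were not left out together.

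The other 8 members had no called slope on chow. Tff3 had 0.08 (SE 0.040, adjusted p = 0.161), Agr2 -0.09 (SE 0.0669, adjusted p = 0.34), and Zg16, Clca1, Fcgbp and Spink4 lay between -0.03 and 0.02. On HFD the called member was another one. Zg16 rose by 0.40 for each doubling (SE 0.0602, adjusted p = 0.0199), where 1.29% of 17715 genes were called higher and 0.779% lower. Tff3 stood at 0.34 (SE 0.077, adjusted p = 0.0671), Fcgbp at 0.64 (SE 0.225, adjusted p = 0.185) and Muc2 at -0.09 (SE 0.121, adjusted p = 0.762). The call of Zg16 was lost without HFD ff 1 (adjusted p = 0.117), without HFD ff 2 (0.158) and without HFD Vill 1 (0.052).

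The 2 HFD libraries low in distal Hox genes weighed on these slopes. With ff 1 and ff 3 left out, the slope over 6 libraries was -0.97 for Muc2 (SE 0.248, unadjusted p = 0.00661, adjusted p = 0.152 by edgeR) and -0.79 for Spdef (SE 0.232, adjusted p = 0.199), and 0.57 for Zg16 (SE 0.158, adjusted p = 0.177), while Fcgbp changed sign to -0.38. In a fit of all 20 libraries the difference between the HFD and the chow slope was 0.43 for Zg16 (95% interval 0.25 to 0.61, unadjusted p = 0.000116, adjusted p = 0.141), 0.27 for Tff3 (0.09 to 0.44, adjusted p = 0.312) and 0.37 for Muc2 (0.03 to 0.71, adjusted p = 0.416). None of the 10 members was called in that comparison, and 0% of 20280 tested genes were. The slopes were thus not shown to differ between the tables.

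**Figure D4:**
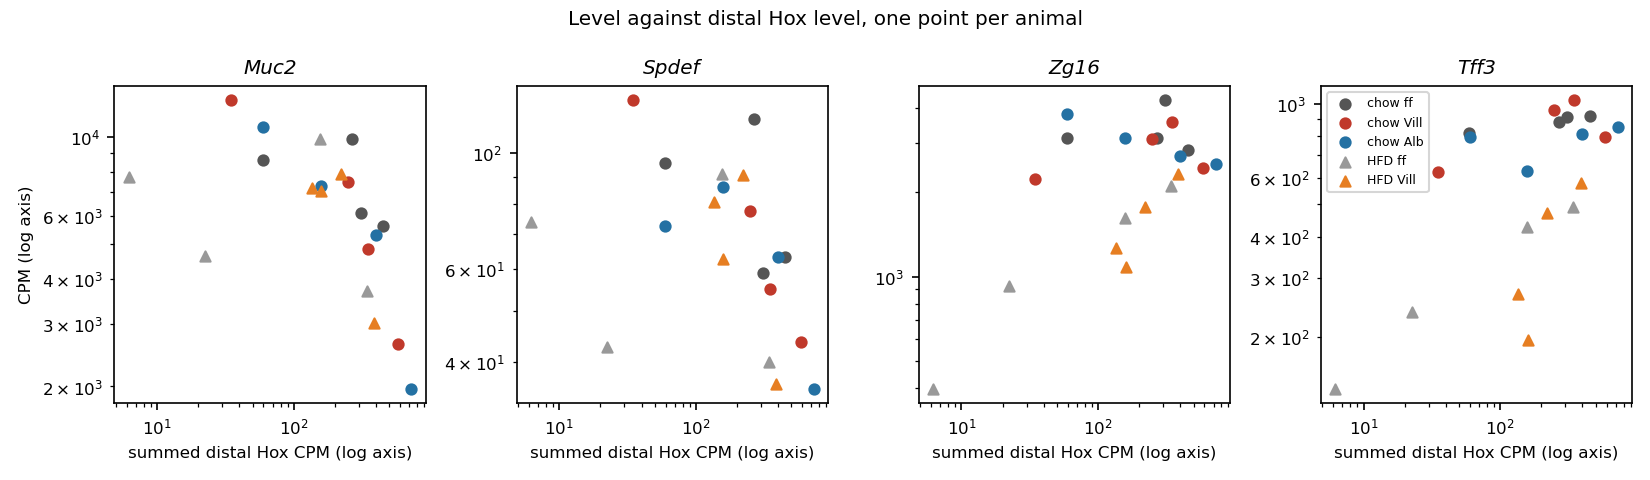
Level of Muc2, Spdef, Zg16 and Tff3 in CPM against the summed CPM of 5 distal Hox genes, both on log axes, 1 point an animal (circles chow, triangles HFD). On chow Muc2 and Spdef points descend to the right, from 12670 to 1968 CPM for Muc2, and on HFD Zg16 and Tff3 points ascend from the ff library at 6.17 CPM of distal Hox genes.

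Other genes of the goblet cell were read from lists written from general knowledge. None of the 13 tested other secreted goblet products, 22 genes of the secretory machinery, 17 genes of lineage choice and Notch signalling, or 6 transmembrane mucins was called in any of the 5 comparisons, nor were the tested genes of mucin O-glycosylation (21, or 20 on HFD). In chow Alb against ff, 19 of 22 secretory machinery genes and 17 of 21 glycosylation genes were below 0, with medians of -0.20 and -0.19. The smallest p-values there were those of Gfi1, a transcriptional repressor of secretory progenitors, at a log2 of -0.68 (unadjusted p = 0.0163), Pdia5, a disulfide isomerase, at -0.45 (0.0166), Ccl6 at -0.47 (0.0274) and Fut2, a fucosyltransferase of mucin glycans, at -0.49 (0.0354), each with an adjusted p of 0.99 by edgeR. Gfi1 was at 9.17, 8.05, 9.75 and 16.7 CPM in chow Alb and at 26.0, 21.3, 16.3 and 22.1 CPM in chow Vill, a log2 difference of 0.98 for Vill against Alb (unadjusted p = 0.00177, adjusted p = 0.46), with 1 Alb library inside the range of Vill. Notch2, a receptor of that pathway, was lower in Vill than in Alb without overlap (log2 -0.61, unadjusted p = 0.00227, adjusted p = 0.46), where 2.13% of all genes were lower without overlap. On HFD, 2 of 17 lineage genes were higher in Vill without overlap, where 1.22% of all genes were. These were Elf3, an epithelial Ets factor (log2 0.41, unadjusted p = 0.0219, adjusted p = 0.932 by edgeR), and Foxa1. Foxa1 was at 79.8 to 87.2 CPM in ff and 92.0 to 102 CPM in Vill.

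Retnlb, an antibacterial resistin-like protein of goblet cells, varied like Ang4. It had 1871, 1225, 19.3 and 662 CPM in chow ff, 924, 308, 0.703 and 1826 CPM in chow Vill, and 342, 58.9, 887 and 671 CPM in chow Alb. HFD ff had 61.9, 6.88, 102 and 1780 CPM and HFD Vill 318, 61.1, 7.89 and 2147 CPM, again with replicate 4 far above the rest of each HFD group. Ern2, the stress sensor of mucin-secreting cells, was steady by comparison, at 85.3 to 144 CPM on chow and 58.0 to 119 CPM on HFD. The gel-forming mucins of other organs, Muc5ac and Muc5b, were at or near 0, with 1 library above 0.21 CPM (Muc5b at 3.32 CPM in chow Alb 2, the library with squamous genes).

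Genes that build mucin glycans were also fitted on the distal Hox level. On chow 7 of 21 fell and 3 rose, beside 9.61% and 9.7% of all genes. Among those that fell, C1galt1c1 kept its call in 8 of 15 alternative fits. B3gnt6, the enzyme of the core 3 glycan, fell by 1.22 for each doubling (SE 0.233, adjusted p = 0.00486) and ran from 56.2 CPM in Vill 1 to 0.586 CPM in Vill 3. Gcnt4 fell by 1.05 on chow (SE 0.0636, adjusted p = 7.07e-06) and by 0.68 on HFD (SE 0.104, adjusted p = 0.0216). B3gnt7, which extends the chains, rose by 1.54 on chow (SE 0.113, adjusted p = 1.6e-05) and by 1.19 on HFD (SE 0.167, adjusted p = 0.0148). It had 12.7 CPM in chow Vill 1 and 929 CPM in chow Vill 3. B4galnt2 fell in both tables (-0.59 and -0.30 per doubling, adjusted p = 0.000127 and 0.0487) and St3gal6, a sialyltransferase, rose in both (0.41 and 0.63, adjusted p = 0.00155 and 0.0205).

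On chow, 2 of 22 secretory machinery genes were called lower and 3 higher. It was 3 and 3 of 13 other secreted products, and 1 and 2 of 17 lineage genes. Of all genes 9.61% were called lower and 9.7% higher. The genes called lower were Sytl4, Slc12a8, Dmbt1, Ccl9, Tgm2 and Jag1. Tgm2 kept its call in 7 of 15 alternative fits on chow, and the others in 14 or 15. On HFD these lists had 0 lower and 2, 2 and 1 higher, beside 0.779% and 1.29% of all genes. Among the secretory machinery, Best2, an anion channel of colonic goblet cells, rose by 1.02 on chow and 1.12 on HFD (adjusted p = 0.000126 and 0.00606), and Rep15 by 0.31 and 0.40 (adjusted p = 0.00949 and 0.0223). Of the other secreted products Tgm3, a transglutaminase that crosslinks proteins, rose by 2.08 on chow and 1.98 on HFD (adjusted p = 0.000157 and 0.00385), and Sval1 by 1.21 and 1.63 (adjusted p = 0.000411 and 0.00208). Foxa2, a forkhead factor of endoderm, rose by 0.47 and 0.43 (adjusted p = 0.00197 and 0.0146). Several of these HFD calls rested on single libraries. Without HFD ff 1 and ff 3 together the adjusted p was 0.17 for B4galnt2, 0.113 for Foxa2, 0.0927 for Gcnt4, 0.365 for Rep15, 0.52 for St3gal6 and 0.103 for Sval1. Without HFD ff 2 alone it was 0.451 for B4galnt2, 0.162 for Foxa2, 0.267 for Gcnt4, 0.158 for Rep15, 0.11 for St3gal6, 0.158 for B3gnt7 and 0.0886 for Best2. Rep15 also lost its call without HFD ff 1, ff 3 or ff 4, St3gal6 without HFD ff 1 or Vill 1, Gcnt4 without HFD ff 4 or Vill 1, and B4galnt2 without HFD ff 4, Vill 1, Vill 2 or Vill 3. Tgm3 was called in each of the 12 alternative fits on HFD.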

How the data were processed

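RNA of 20 mouse colon libraries was sequenced by the study. Per the file headers, each deposited table gives a read count for every gene in every library, beside log2 fold changes and p-values of the authors' comparisons, which are quoted only where the authors' deposited table is named. A further 28 deposited columns of FPKM and normalized signal were not used. The submitters' processing notes name mm39 as the build and, as tools without stated roles, edgeR 3.22.5, DESeq2 1.20.0, HISAT2 2.0.5 and featureCounts 1.5.0-p3.

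Counts were tested here with edgeR 4.0.16 under R 4.3.3 (quasi-likelihood F test, TMM, default expression filter). The 12 chow libraries formed 1 fit, the 8 HFD libraries another, and 16 ff and Vill libraries entered a separate fit for the difference between diets. Benjamini-Hochberg adjustment covered the whole table of each fit. DESeq2 1.42.0 and limma 3.58.1 (voom) were alternatives. Scripts were tested on simulated counts. Fold changes and intervals come from the fits. CPM of single libraries use scaling factors over all 20 libraries. Replicates are libraries the labels number separately, and nothing beyond this says how the animals were kept, so p-values measure the spread between these samples. The members, the gene lists, the alternatives and the tests were chosen with earlier results of these data known. Named genes were the members, the called genes or those with the smallest p of each other goblet list, Retnlb, Ern2 and B3gnt6, Pcca, and the 5 genes most like Muc2. Among genes with called slopes, those called in both tables were named after their values were seen. So were the genes called lower on chow in the secretory machinery, other secreted and lineage lists. Slopes, the distal covariate and the pair correlations were added after the data were seen. For promoters, the RefSeq table of GRCm38.p6 gave sequence and coordinates, and these were not mixed with gene positions in mm39.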

Additional observations from a re-analysis of the deposited data

Results flagged for a closer look

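In each group of 4 libraries the highest or lowest value of each member was checked against its neighbour, 50 checks in all, by Dixon's ratio of the gap to the range, at its 95% critical value. Chance would flag about 1 in 20 such groups if the values were normally distributed. CPM values need not be, and the checks share libraries, so that rate may not hold here. The ratio was not taken on the log2 scale. Of the 50 checks 5 were past the limit, all on HFD. Muc2 in HFD Vill 3 was at 3008 CPM, below the next library at 7084 CPM (ratio 0.84), and this library also had the highest distal Hox level on HFD, 387 CPM. Clca1 in HFD ff 4 was at 17900 CPM against 3584 CPM in the next (0.847). Ang4 in the same library was at 2752 CPM against 171 CPM (0.968). Ang4 in HFD Vill 4 was at 5099 CPM against 628 CPM (0.896), and Spink4 there at 1143 CPM against 360 CPM (0.851). HFD ff 4 and HFD Vill 4 each held the highest value of 8 of the 10 members in their group.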

How the results depend on the processing

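No member was called in any of the 5 group comparisons under any alternative run. Of 1000 member values under these alternatives, 915 kept the direction of the reported value and 85 did not. With 4 animals a group and members that differ several-fold between animals, the width of the intervals in the report limits the detectable differences. Member levels with plain library totals stayed within 1 SD of the reported ones in all 50 member and group combinations. The cause of the changes listed here was not tested.

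With the library size taken from the epithelium list, the log2 difference was -0.019 for Atoh1 in chow Vill against ff, -0.12 for Agr2, -0.14 for Spdef and -0.19 for Atoh1 on HFD, and -0.030 for Muc2 in the difference between diets. With limma-voom, chow Vill against Alb was -0.071 for Clca1 and -1.32 for Ang4, and the chow slope of Spink4 was -0.026. Libraries of equal replicate number were not treated as pairs. The correlation of their deviations from the group means ran from -0.762 to 0.685. On HFD it was 0.488 for replicate 1 and 0.512 for replicate 4, and -0.381 and -0.166 for replicates 2 and 3. These values cannot show whether libraries of the same number shared their handling. A replicate block called 0 members in each comparison and gave -0.044 for Clca1 and -0.49 for Ang4 in chow Vill against Alb.

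Without HFD ff 1 and HFD ff 3 together, HFD Vill against ff was -0.10 for Fcgbp, -0.11 for Clca1, -0.20 for Zg16, -0.26 for Tff3, -0.12 for Agr2, -0.15 for Atoh1 and -0.47 for Spink4. The difference between diets was then -0.22 for Tff3 and -0.021 for Spink4. The HFD slopes were -0.38 for Fcgbp, -0.69 for Clca1, -0.24 for Agr2, -2.91 for Ang4 and -0.71 for Spink4, and 0 members had a called slope in place of 1. Without the expression filter 2 members had one, Zg16 and Tff3. With the distal Hox level as a covariate, added after the data were seen, HFD Vill against ff was 0.10 for Muc2, -0.024 for Fcgbp, -0.052 for Clca1, -0.27 for Zg16, -0.37 for Tff3, -0.057 for Atoh1 and -0.21 for Spink4. The difference between diets was then -0.11 for Tff3 and 0.0033 for Atoh1.

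Leaving out 1 library at a time gave these ranges. In chow Vill against ff the median of the members ran from -0.32 to 0.022, Muc2 from -0.61 to 0.14, Fcgbp from -0.74 to 0.030, Clca1 from -0.79 to 0.18, Tff3 from -0.16 to 0.058, Spdef from -0.52 to 0.045, Atoh1 from -0.074 to 0.11, Ang4 from -1.24 to 0.30 and Spink4 from -0.74 to 0.012. In chow Alb against ff the median ran from -0.59 to -0.17, Muc2 from -0.64 to 0.039 and Zg16 from -0.26 to 0.0065. In chow Vill against Alb the median ran from 0.061 to 0.44, Muc2 from -0.35 to 0.50, Fcgbp from -0.24 to 0.47, Clca1 from -0.28 to 0.55, Zg16 from -0.24 to 0.015, Spdef from -0.15 to 0.41 and Ang4 from -0.35 to 0.87. On HFD the median ran from -0.18 to 0.43, Muc2 from -0.25 to 0.20, Clca1 from -0.48 to 2.33, Tff3 from -0.066 to 0.49, Agr2 from -0.24 to 0.30, Spdef from -0.065 to 0.35, Atoh1 from -0.17 to 0.15, Ang4 from -1.42 to 3.64 and Spink4 from -0.54 to 1.08. In the difference between diets the median ran from -0.013 to 0.63, Muc2 from -0.19 to 0.55, Clca1 from -0.19 to 2.63, Tff3 from -0.010 to 0.54, Atoh1 from -0.21 to 0.097, Ang4 from -0.99 to 4.06 and Spink4 from -0.081 to 1.53. Of the chow slopes 1 to 2 members were called, and Fcgbp ran from -0.13 to 0.072, Clca1 from -0.12 to 0.086, Zg16 from -0.12 to 0.032, Atoh1 from -0.10 to 0.018 and Spink4 from -0.083 to 0.099. Of the HFD slopes 0 to 2 members were called, and Muc2 ran from -0.21 to 0.023, Agr2 from -0.0034 to 0.26, Spdef from -0.17 to 0.025 and Ang4 from -0.15 to 0.99.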

Other observations

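One chow library stood at the bottom of 3 antibacterial products of goblet cells at the same time, a set chosen after its values were seen. Chow Vill 3 had Ang4 at 2.74 CPM, Retnlb at 0.703 CPM and Itln1, a lectin of the intelectin family, at 0.234 CPM. The other chow Vill libraries had 1426 to 3832 CPM of Ang4, 308 to 1826 CPM of Retnlb and 39.0 to 183 CPM of Itln1. In chow ff the library lowest in all 3 was ff 3, with 173, 19.3 and 3.47 CPM. These libraries were low in other members too. Chow Vill 3 was the lowest of its group in 7 of the 10 members, among them Muc2 (2639 CPM), Fcgbp (3331 CPM) and Clca1 (3150 CPM), and chow ff 3 in 5 of the 10. Atoh1, Zg16 and Tff3 were not lowest in chow Vill 3.

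Mptx1, a pentraxin of the colonic epithelium, also varied widely between the HFD libraries. It was at 24.8, 3755, 22.8 and 11240 CPM in HFD ff and at 1538, 379, 2404 and 16930 CPM in HFD Vill, so that replicate 4 was the highest of each HFD group, as for Ang4 and Retnlb. Chow ff had 16220, 1629, 1149 and 7971 CPM, with ff 1 the highest.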
